A study of Mus musculus with 8 samples.

Results

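The insulin-like growth factor (IGF) genes Igf1, Igf2, Igf1r, Igf2r, Igfbp2, Igfbp3, Igfbp4, Igfbp5, Igfbp6 and Igfbp7 were examined for WFS1 peaks in C2C12 cells, a mouse myoblast line, which were wildtype and proliferating. The 10 genes were given as a list and were all found among the 55413 annotated genes, of which 21938 are protein-coding. For each gene, every WFS1 peak inside it or within 100 kb of either end was collected, which gave 61 different peaks of the 22292 in the whole experiment. Of 8 libraries, the 6 not used here were inputs and libraries of WFS1 knockout cells with WFS1-FlagTag expression. The 2 peak lists used were from the wildtype WFS1 ChIP after 30 sonication cycles (18283 peaks) and after 36 cycles (12674 peaks), and both derive from a single immunoprecipitation of DSG and formaldehyde crosslinked chromatin. Each list is 1 library and neither is a replicate of the other, so no difference could be tested and no p-value is given. Overlapping peaks were joined into a combined set, and a peak of this set was called in both lists, after 30 cycles only or after 36 cycles only. The lists hold positions without height or read number, so the depth behind a peak is unknown, and the absence of a peak does not show that WFS1 was absent.

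Igf1 and Igf2 encode secreted growth factors that activate the receptor tyrosine kinase encoded by Igf1r, while Igf2r encodes the mannose 6-phosphate receptor, which binds Igf2 and removes it from the cell surface. The Igfbp genes encode secreted proteins that bind the growth factors and set how much of them reaches the receptor. In myoblasts, IGF signaling is known to sustain both proliferation and differentiation, and WFS1 is a membrane protein of the endoplasmic reticulum that the study also located in the inner nuclear membrane.

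Peaks were found around 9 of the 10 genes, against 73.4% of all protein-coding genes with at least 1 peak in the same kind of window. The same 9 genes had at least 1 peak called in both lists, against 47.8% of protein-coding genes. Igfbp6 had 17 peaks, Igfbp5 15, Igfbp2 9, Igf2r 8, Igfbp7 6, Igf1r 5, Igf1 4, Igfbp4 3, Igf2 1 and Igfbp3 none. The median was 5.5 peaks per gene, where all protein-coding genes had a median of 2 and quartiles of 0 and 5. Because Igfbp2 and Igfbp5 are neighbours, 7 peaks counted for both of them. The windows of the 10 genes span 2398.3 kb in all and held 2.54 peaks per 100 kb. Over the whole nuclear chromosomes there were 0.818 peaks per 100 kb. That value includes DNA far from any gene, so it is no background for windows placed around genes. No density is given for the windows of all protein-coding genes.

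To show the DNA at these peaks, the central 200 bp are printed for the widest peak of each gene that was called in both lists. All are plus-strand GRCm38 sequence from RefSeq, and no shown stretch overlaps an annotated exon. Capitals mark CAGCTG (an E-box), TGANTCA (which includes the AP-1 site), AACCNCA (which includes the RUNX site), GGAATG (part of the TEAD site) and GGNGGCAG (part of the CTCF site), on either strand.
Igf1, intron, 21.7 kb downstream of the start, peak chr10:87879990-87880390, 1 TGANTCA: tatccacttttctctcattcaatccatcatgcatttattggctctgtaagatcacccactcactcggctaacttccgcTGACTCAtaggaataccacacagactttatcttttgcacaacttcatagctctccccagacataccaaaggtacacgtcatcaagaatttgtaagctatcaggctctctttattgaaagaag
Igf2, beyond the gene end in Nctc1, peak chr7:142550845-142551450, 1 CAGCTG, 1 AACCNCA, 1 GGAATG: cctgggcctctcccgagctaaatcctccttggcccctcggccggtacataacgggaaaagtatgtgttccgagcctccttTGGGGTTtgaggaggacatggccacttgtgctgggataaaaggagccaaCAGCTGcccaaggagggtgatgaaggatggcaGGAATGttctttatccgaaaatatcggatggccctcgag
Igf1r, 1.55 kb upstream of the start, peak chr7:67950458-67951280, 2 CAGCTG, 1 GGAATG: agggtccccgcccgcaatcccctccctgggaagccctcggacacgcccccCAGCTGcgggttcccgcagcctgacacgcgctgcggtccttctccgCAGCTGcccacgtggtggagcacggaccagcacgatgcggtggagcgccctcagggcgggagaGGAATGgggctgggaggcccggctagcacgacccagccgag
Igf2r, 34.8 kb upstream of the start, peak chr17:12804507-12805396, 1 TGANTCA: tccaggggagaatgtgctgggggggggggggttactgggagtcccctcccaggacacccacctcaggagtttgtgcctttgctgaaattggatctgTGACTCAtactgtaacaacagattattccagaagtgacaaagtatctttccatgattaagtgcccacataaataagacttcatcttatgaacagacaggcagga
Igfbp2, 126.8 kb downstream of the start, beyond Igfbp5, peak chr1:72951256-72952185, no match: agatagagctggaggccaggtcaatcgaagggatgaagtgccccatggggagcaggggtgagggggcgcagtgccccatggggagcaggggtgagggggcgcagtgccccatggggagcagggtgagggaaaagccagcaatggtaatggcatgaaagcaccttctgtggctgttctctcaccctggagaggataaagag
Igfbp4, 64.3 kb downstream of the start, peak chr11:99105538-99106027, no match: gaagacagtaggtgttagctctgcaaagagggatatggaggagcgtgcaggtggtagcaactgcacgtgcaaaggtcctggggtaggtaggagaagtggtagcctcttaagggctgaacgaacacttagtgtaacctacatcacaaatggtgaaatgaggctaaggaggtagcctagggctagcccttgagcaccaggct
Igfbp5, 91.3 kb upstream of the start, peak chr1:72966217-72967272, 1 TGANTCA: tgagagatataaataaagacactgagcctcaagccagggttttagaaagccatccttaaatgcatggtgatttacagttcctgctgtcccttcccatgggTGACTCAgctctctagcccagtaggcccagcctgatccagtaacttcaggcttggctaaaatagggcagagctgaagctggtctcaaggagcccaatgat
Igfbp6, 86.2 kb downstream of the start, in Itgb7, peak chr15:102230529-102231610, 2 AACCNCA: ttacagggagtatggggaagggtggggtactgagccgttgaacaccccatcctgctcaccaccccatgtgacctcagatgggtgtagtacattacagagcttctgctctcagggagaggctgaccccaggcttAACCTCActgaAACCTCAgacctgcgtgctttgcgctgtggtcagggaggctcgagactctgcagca
Igfbp7, 154.3 kb downstream of the start, peak chr5:77253199-77253730, 1 AACCNCA: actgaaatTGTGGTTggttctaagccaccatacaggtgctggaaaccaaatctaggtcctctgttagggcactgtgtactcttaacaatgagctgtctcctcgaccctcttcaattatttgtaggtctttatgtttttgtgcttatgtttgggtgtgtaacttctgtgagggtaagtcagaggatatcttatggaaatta

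**Figure D1:**
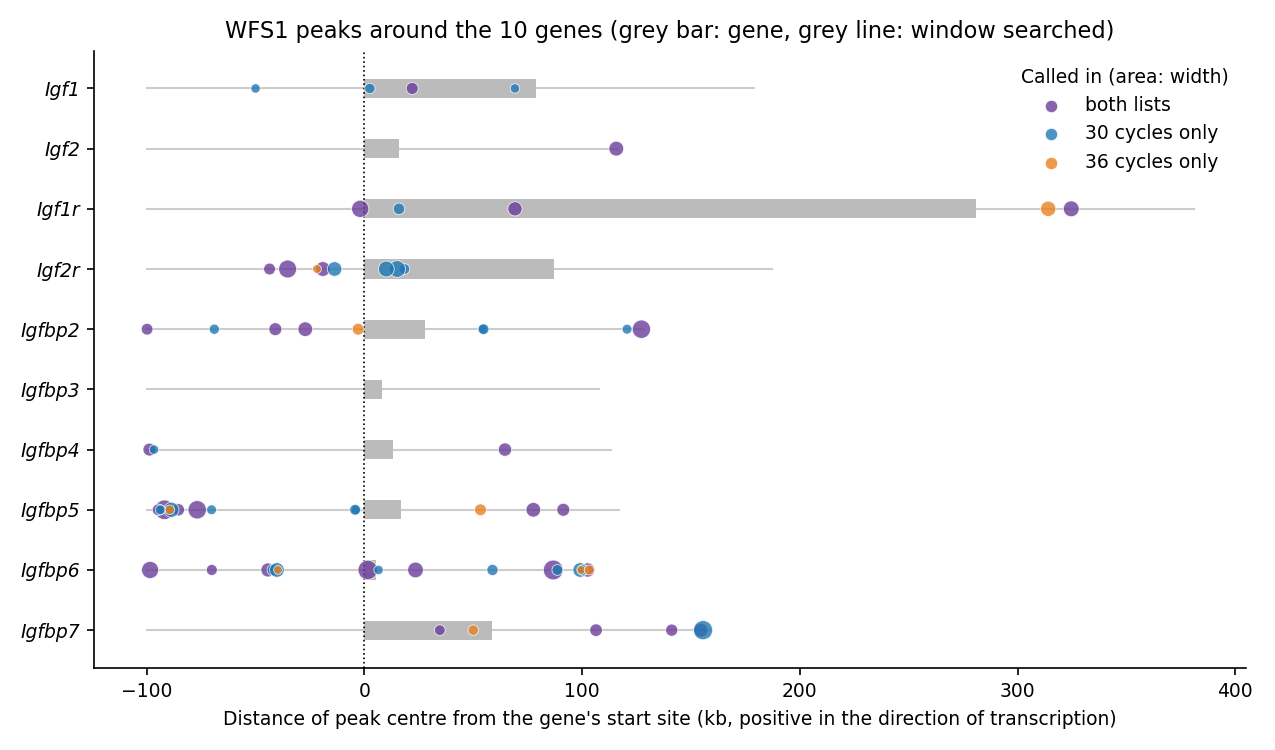
Each point is a combined WFS1 peak, placed by the distance of its centre from the start site of the gene in kb, with point area proportional to width and color for the list in which it was called. Igfbp3 has no point, the peaks of Igf1 and Igf2r lie in or upstream of the gene, and the single Igf2 peak lies beyond the gene end at 115.7 kb.

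Among the ligands, Igf1 and Igf2 differed in where their peaks lay. Igf1 (ENSMUSG00000020053, chr10:87858265-87937042, forward strand) had 4 peaks, 4 in the 30-cycle list and 1 in the 36-cycle list. For all 4, the nearest protein-coding start site was that of Igf1 itself. A peak of 297 bp at chr10:87860579-87860875, called after 30 cycles only, began 2.31 kb downstream of the 5′ end of the gene. It covered 1 annotated transcript start inside the gene and overlapped an exon with untranslated sequence and the antisense RNA Igf1os. Its last 15 bases lay in the RefSeq promoter region of Igf1, which is set by a start site 236 bp past the end of the peak. The peak called in both lists, which was 287 bp wide after 30 cycles and 401 bp after 36 cycles, lay in an intron. The others, both 242 bp wide and absent from the 36-cycle list, lay in an intron 69.0 kb from the start site and 49.9 kb upstream of the gene. The upstream one was 91.7% repeat sequence. Among all peaks called after 30 cycles only, 242 bp was the 5 percentile of width.

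Igf2 (ENSMUSG00000048583, chr7:142650766-142666816, reverse strand) had a single peak, which was 606 bp wide in the 30-cycle list and 588 bp in the 36-cycle list. This peak lay 99.3 kb beyond the end of the gene, just inside the 100 kb limit, and 115.4 kb from its start site. It was inside Nctc1, a muscle-expressed noncoding RNA gene, 7.15 kb from the Nctc1 start site, and 26.7 kb from the start site of H19. H19 is a noncoding RNA imprinted together with Igf2, and DNA downstream of H19 is known to hold enhancers that act on both genes, in muscle among other tissues. No peak overlapped Igf2, its antisense RNA Igf2os, Mir483 or Mir675, the microRNAs in Igf2 and H19. Within 50 kb of Igf2 no peak was found, and within 200 kb there were 5.

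The receptor genes Igf1r and Igf2r both held peaks. Igf1r (ENSMUSG00000005533, chr7:67952827-68233668, forward strand) had 5 peaks, 4 in each list. The nearest, 823 bp wide after 30 cycles and 267 bp after 36 cycles, ended 1.55 kb upstream of the annotated start and 977 bp upstream of the RefSeq start. Its sequence was rich in CpG, with 66.7% GC, 67 CpG and a ratio of observed to expected CpG of 0.73, and its central 200 bp held 2 of the CAGCTG E-boxes. Inside Igf1r, a peak of 365 bp called after 30 cycles only lay 15.7 kb from the start site and a peak of 559 bp called in both lists lay 68.9 kb from it, both in introns. Beyond the end of the gene, 2 peaks were closer to the start sites of Pgpep1l (2363 bp) and Fam169b (3298 bp) than to that of Igf1r.

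Igf2r (ENSMUSG00000023830, chr17:12682406-12769664, reverse strand) had 8 peaks, 7 in the 30-cycle list and 4 in the 36-cycle list. All 8 had the Igf2r start as their nearest protein-coding start site. Inside the gene, 3 peaks of 329, 773 and 694 bp, all called after 30 cycles only, lay in introns 18.1, 14.6 and 9.68 kb from the start site. The peak of 329 bp lay 421 bp from another annotated transcript start of Igf2r. Upstream, 5 peaks lay between 13.5 and 43.4 kb from it, and 3 of them were called in both lists. All 8 peaks were inside Airn, the 118.8 kb antisense RNA gene whose transcription is known to silence the paternal Igf2r allele in imprinted tissues. Of these, the peak nearest to the Airn start site lay 9.91 kb from it, so no peak covered that start. The list used for calling differed by position, since the peaks inside Igf2r were absent from the 36-cycle list and 4 of the 5 upstream peaks were in it.

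The binding protein genes ranged from no peak to the highest number of the 10 genes. Igfbp3 (ENSMUSG00000020427, chr11:7206086-7213923, reverse strand), which encodes the main IGF carrier in blood serum, had none, and the nearest peak lay 209.9 kb from its start site. In the 36-cycle list alone that distance was 500.9 kb. The window of Igfbp3 touched 4 protein-coding genes including Igfbp3, and 26.6% of all protein-coding genes likewise had no peak. Igfbp1, which lies beside Igfbp3, had no peak within 100 kb either. Igfbp4 (ENSMUSG00000017493, chr11:99041244-99054392, forward strand) had 3 peaks, none of which was nearest to its own start. Of these, 2 lay in Rara, a retinoic acid receptor gene, 98.6 and 96.6 kb upstream of Igfbp4, and the third lay 64.3 kb downstream, 16232 bp from the start site of Tns4, a tensin gene.

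**Figure D2:**
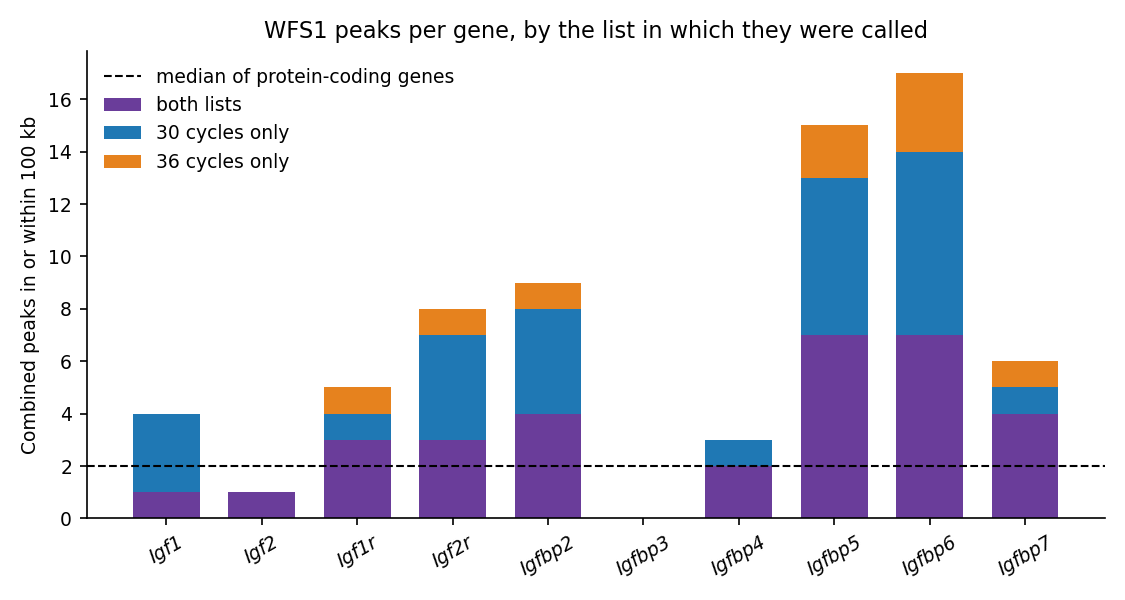
Bars give the number of combined peaks in or within 100 kb of each gene, divided by the list in which a peak was called, and the dashed line marks the median of 2 over all protein-coding genes. Igfbp6 (17) and Igfbp5 (15) stand above the other genes, Igf2 (1) and Igfbp3 (0) lie below the line, and peaks called in both lists are part of every bar.

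Igfbp2 and Igfbp5 lie tail to tail on chromosome 1, with 5.46 kb between their ends and 50.4 kb between their start sites. Igfbp2 (ENSMUSG00000039323, chr1:72824503-72852474, forward strand) had 9 peaks, 8 in the 30-cycle list and 5 in the 36-cycle list. Igfbp5 (ENSMUSG00000026185, chr1:72857932-72874884, reverse strand), whose product is known to be secreted by differentiating myoblasts, had 15 peaks, 13 in the 30-cycle list and 9 in the 36-cycle list. Together they had 17 different peaks, and none of these was inside either gene. Of all protein-coding genes, 98.1% had fewer peaks than Igfbp5. In windows of 50 kb Igfbp5 had 3 peaks and 72.3% of genes had fewer.

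Each peak near the start sites of this pair was called in a single list. Igfbp2 had a peak of 386 bp 2.72 kb upstream of its start, which only the 36-cycle list held. Igfbp5 had peaks of 259 and 317 bp, 3.77 and 4.17 kb upstream of its start, which only the 30-cycle list held. With the 30-cycle peaks by themselves, the nearest to Igfbp2 was therefore 27.0 kb away, and with the 36-cycle peaks by themselves the nearest to Igfbp5 was 53.1 kb away. Between 26.9 and 40.7 kb upstream of Igfbp2 lay a pair of wider peaks of 594 and 462 bp, both called in both lists.

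Most peaks of Igfbp5 lay far upstream. Of its 15 peaks, 12 were upstream of the start site, and 8 of those formed a group at chr1:72960164-72969891, between 85.3 and 94.6 kb from the start. These 8 peaks lay within 9.73 kb and covered 36.4% of it, with gaps of 101 to 2675 bp between them. The group held 4 peaks called in both lists, 3 called after 30 cycles only and 1 called after 36 cycles only, and the widest was 1022 bp in the 30-cycle list and 494 bp in the 36-cycle list. The limits of the group were chosen after its positions were seen. The nearest protein-coding start to these 8 peaks was that of Tnp1, a chromatin protein gene of spermatids, at 46018 to 55329 bp, and no peak of the group overlapped an annotated gene. A further peak of 930 bp, called in both lists, lay 76.4 kb upstream of Igfbp5.

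**Figure D3:**
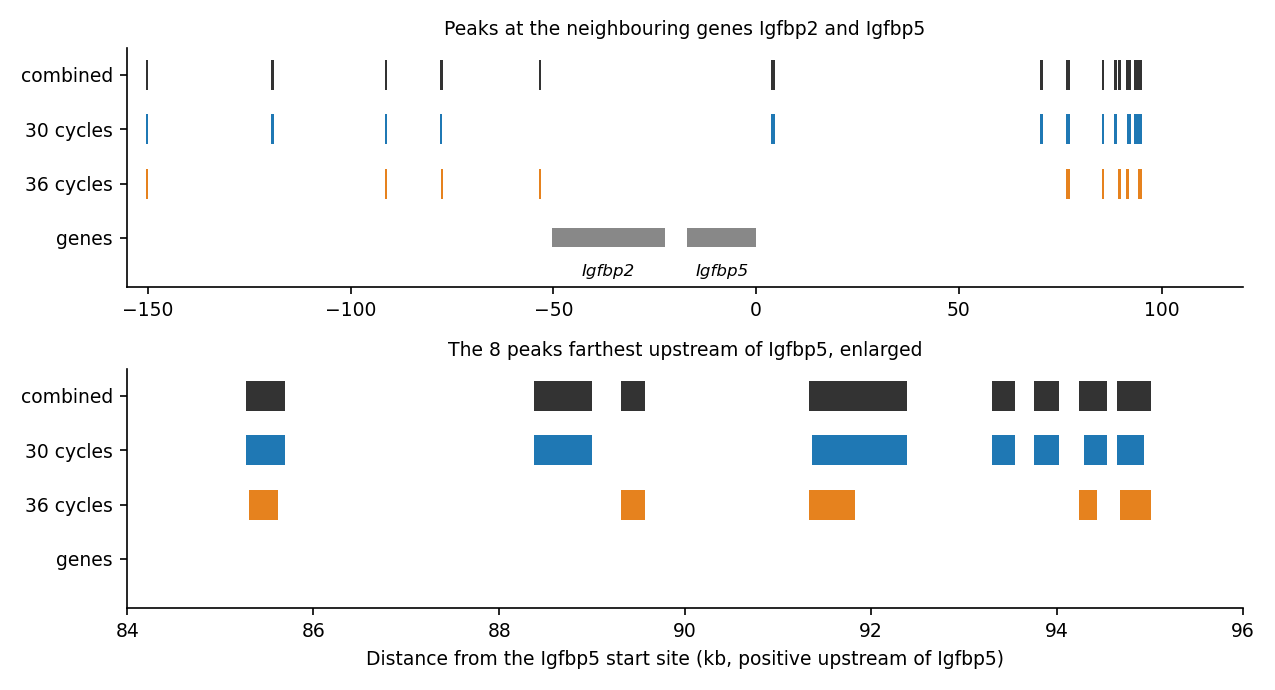
Peaks of the combined set and of each list are drawn by distance in kb from the Igfbp5 start site, with both genes below. Peak widths are to scale in the lower panel, while in the upper panel most peaks are drawn at a minimum width. The upper panel shows few peaks near the start sites, and the lower panel shows the group of 8 peaks between 85.3 and 94.6 kb upstream with those of each list.

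Igfbp6 (ENSMUSG00000023046, chr15:102144362-102149511, forward strand), whose product binds Igf2 in preference to Igf1, had 17 peaks, 14 in the 30-cycle list and 11 in the 36-cycle list. It was the sole gene of the 10 with a peak less than 1 kb from the start of the gene record, against 13.2% of protein-coding genes. That peak, chr15:102145317-102146354, began 0.955 kb downstream of the start and lay in an intron. It was 897 bp wide in the 30-cycle list, while the 36-cycle list held 2 peaks there with a summed width of 697 bp. With the RefSeq start of Igfbp6 the distance was 1131 bp, and by RefSeq starts the genes with a peak within 1 kb were Igf1 (236 bp) and Igf1r (977 bp). By any annotated transcript start they were Igf1 (0 kb), Igf2r (0.421 kb) and Igfbp6 (0.955 kb). The 13.2% is for the start of the gene record, and no share is given for these other starts.

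The other 16 peaks of Igfbp6 had the start site of another protein-coding gene as their nearest, and its window touched 9 protein-coding genes in all. The nearest starts were those of Itgb7 (5 peaks), an integrin subunit, Tns2 (4 peaks), a tensin of focal adhesions, Soat2 (2 peaks), a cholesterol-esterifying enzyme, Rarg (2 peaks), a retinoic acid receptor, and Krt18, Eif4b and Zfp740 with 1 peak each. The widest of the 61 peaks, 1082 bp, was among them, 334 bp from the Itgb7 start and inside that gene. Protein-coding genes with fewer peaks than Igfbp6 made up 99.0% of all. In windows of 50 kb Igfbp6 had 7 peaks and 94.0% of genes had fewer, and in windows of 200 kb it had 26 and 99.2% had fewer. The genes with the most similar pattern by numbers of peaks in both lists (7), after 30 cycles only (7) and after 36 cycles only (3) were Plaur, Kcnn4 and Irgc1, which had the same 3 numbers. These genes are not independent of each other, since 16 of their 18 different peaks were counted for all 3.

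Igfbp7 (ENSMUSG00000036256, chr5:77349240-77408041, reverse strand), a low-affinity member of the binding protein family found in the matrix, had 6 peaks, 5 in each list. Inside the gene, a peak of 316 bp called in both lists lay 34.5 kb from the start site. A second intron peak, of 300 bp and found after 36 cycles only, lay 49.8 kb from it and was slightly closer to the start of Polr2b (47793 bp), an RNA polymerase subunit gene. Beyond the gene end there were 4 peaks, 3 of them nearest to the start of Rest, a repressor of neuronal genes, and 1 nearest to Noa1. The peak nearest to a start site among these was 1211 bp from that of Rest and inside that gene.

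**Figure D4:**
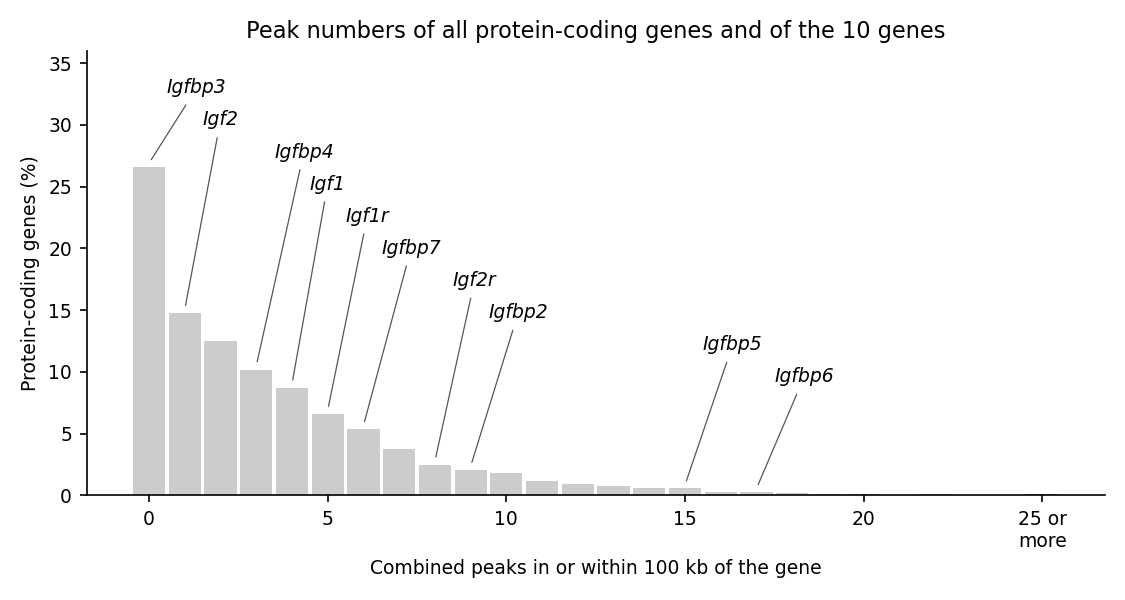
The bars give the percentage of the 21938 protein-coding genes with each number of combined peaks in or within 100 kb, and lines mark the 10 genes. Igfbp3 falls in the tallest bar at 0 peaks, while Igfbp5 (15) and Igfbp6 (17) fall in the sparse right part.

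Regarding position, 6 of the 10 genes had a peak 10 kb or less from the start (Igf1, Igf1r, Igf2r, Igfbp2, Igfbp5 and Igfbp6), against 25.1% of protein-coding genes. In the 30-cycle list alone there were 5 such genes against 22.0%, and in the 36-cycle list alone 3 (Igf1r, Igfbp2 and Igfbp6) against 13.8%. A peak inside the gene was found for 5 of the 10 (Igf1, Igf1r, Igf2r, Igfbp6 and Igfbp7), against 24.6% of protein-coding genes, and 11 of the 61 peaks were of this kind. This count depends on gene length, and the 24.6% is over genes of all lengths. Igf1r (280842 bp), Igf2r (87259 bp), Igf1 (78778 bp) and Igfbp7 (58802 bp) are longer than every member without such a peak. The longest of those is Igfbp2 (27972 bp), while Igfbp6 is shorter (5150 bp). Only 23 of the 61 peaks had one of the 10 genes as the nearest protein-coding start. These belonged to Igf2r (8), Igf1 (4), Igf1r, Igfbp2 and Igfbp5 (3 each), Igfbp6 and Igfbp7 (1 each). For Igf2 and Igfbp4, every peak in the window was nearer to the start of another protein-coding gene. Which gene a peak acts on, if any, was not measured. At the edge of the windows, the outermost peak counted lay 99.7 kb upstream of Igfbp2, and the nearest peaks outside a window lay 102.3 kb from Igfbp5 (a peak that counted for Igfbp2) and 102.7 kb from Igfbp7.

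Peaks called in both lists made up 29 of the 61, or 47.5% (95% Wilson interval 35.5 to 59.8, counting error only), and 35.4% of all combined peaks. After 30 cycles only there were 24 (39.3%, 28.1 to 51.9), where all combined peaks gave 45.5%, and after 36 cycles only 8 (13.1%, 6.80 to 23.8), where all gave 19.1%. Among the 61, those called in both lists had a median width of 541 bp (308 to 1082), compared with 623 bp for all peaks of this kind. The peaks of the 30-cycle list only had a median of 320 bp (242 to 1016; all such peaks, 324 bp). The peaks of the 36-cycle list only had a median of 265 bp (205 to 645; all such peaks, 255 bp). The widest peak of a single list was the 1016 bp peak 155.0 kb from the Igfbp7 start, called after 30 cycles only. The median GC content of the 61 peaks was 49.4% (36.4 to 68.4), and that of all peaks was 47.1%. Repeat sequence made up over 50% of 3 of the 61 peaks, and of 10.4% of all combined peaks. These 3 were at Igf1 (91.7% repeat) and Igfbp7 (56% and 53.3%).

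**Figure D5:**
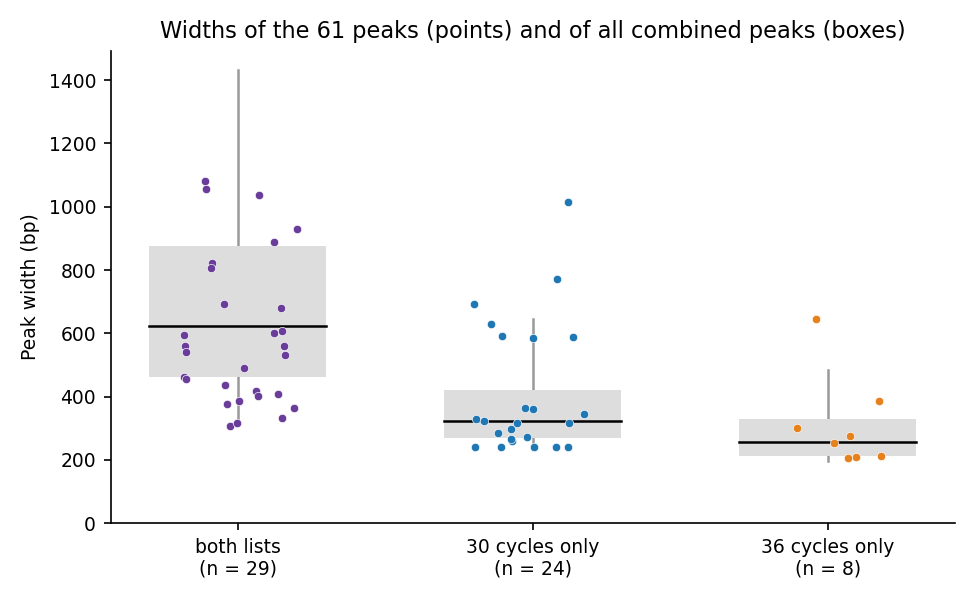
Points give the width in bp of the 61 peaks by the list in which they were called, with random sideways spread. Grey boxes show the quartiles, black lines the median and grey lines the 5 to 95 percentiles of all combined peaks of that kind. The points reach 1082 bp for both lists, 1016 bp for 30 cycles only and 645 bp for 36 cycles only.

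Sequence matches were counted in the central 200 bp of each peak, on both strands. CAGCTG, a palindrome, was in 11 of the 61 peaks (18.0%, 10.4 to 29.5), and in 18.0% of all combined peaks. These 11 lay around Igf1 (2), Igf2 (1), Igf1r (2), Igf2r (1), Igfbp2 and Igfbp5 (4 in all, 2 of them shared) and Igfbp6 (1). TGANTCA was in 12 peaks (19.7%, 11.6 to 31.3), against 23.4% of all, and 11 of the 12 had TGACTCA or its reverse complement, the AP-1 form. That form was thus in 18.0% of the 61 peaks and in 17.9% of all combined peaks. Of these 12, 5 were in the window of Igfbp6, 3 in that of Igf2r, and none in those of Igf1r, Igf2 and Igfbp4. No peak held both CAGCTG and TGANTCA in its central 200 bp (0 of 61, upper Wilson bound 5.92%), where 4.83% of all combined peaks did, so the share of all peaks lay within that bound. The looser E-box CANNTG, which includes every CAGCTG, was in 38 peaks (62.3% against 68.1% of all), AACCNCA in 15 (24.6% against 18.6%), GGAATG in 8 (13.1% against 15.6%) and GGNGGCAG in 5 (8.20% against 7.60%). For each of these sequences, the interval of the 61 peaks held the share of all combined peaks. AACCNCA is wider than the RUNX site that it includes, and matches to that site alone are not given. A match is a sequence in the reference and not a measured binding site.

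Other genes of IGF signaling were counted from a list of 42 carriers, proteases, related receptors and downstream signaling proteins. Of these, 36 had a peak in or within 100 kb (against 73.4% of all protein-coding genes), 27 a peak called in both lists (against 47.8%), 19 a peak inside the gene (against 24.6%), 16 a peak 10 kb or less from the start (against 25.1%) and 10 a peak within 1 kb of it (against 13.2%). The list also held Igfn1, a muscle protein gene that shares letters but no role with the IGF genes. Without it, 35 of 41 had a peak in the window, 26 one called in both lists and 15 one 10 kb or less from the start. The counts inside the gene and within 1 kb of the start stayed the same. A peak covered the start sites of Irs1, an adaptor of the insulin and IGF receptors (891 bp, both lists), Sos1, an activator of Ras (318 bp, 30 cycles only), and Foxo3, a transcription factor restrained by Akt (323 bp, 30 cycles only). At Irs2, the related adaptor, a peak of 733 bp called in both lists lay 0.149 kb from the start. The other genes with a peak within 1 kb included Gsk3b (0.115 kb), Pik3r1 (0.366 kb), Stc2 (0.394 kb), Pappa (0.821 kb) and Rps6kb1 (0.865 kb), and each of these 5 peaks was called in a single list. Pappa encodes the protease that cleaves Igfbp4, and Stc2 an inhibitor of that protease. The highest numbers were 22 peaks for Rps6kb1, the S6 kinase gene, 18 for Rptor, a subunit of the mTOR complex, and 10 for Irs1. No peak of Rps6kb1 lay inside that gene, while 10 of the Rptor peaks and 7 of the Irs1 peaks lay inside theirs. No peak was found in the windows of Igfbp1, Igfbpl1, Insrr, Ins1, Ins2 and Irs4.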

How the data were processed

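WFS1 ChIP-seq peaks of wildtype proliferating C2C12 myoblasts were taken from the deposited lists of 2 libraries (30 and 36 sonication cycles). For these lists the authors aligned reads with NextGenMap to GRCm38, removed those of low mapping quality with samtools and called peaks per library with MACS2; the control used in calling is not given in the sources used here. The deposited columns are base positions, with no score, read count or depth.

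Both lists were joined with bedtools 2.31.1 merge. Genes and transcript starts came from GENCODE mouse release 21 (Ensembl 96), with the start site at the 5′ end of the gene record, and RefSeq promoters and sequence came from GRCm38.p6. Distances run from the nearest peak edge. Overlap meant at least 1 bp. Sequence matches were sought on both strands in the 200 bp around peak centres. Shares have Wilson intervals at 95% (scipy 1.17.1), which cover counting error over peaks only. The shares over protein-coding genes serve as background. No test was run, because each condition has 1 library.

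All 10 members are named, with every peak in their windows counted. A few items that the rules select are not reported here. The genes, the pathway list and the rules were chosen with earlier results of these data known. Genes with the most similar pattern were the 3 with the smallest summed difference in peak numbers by list, sharing no peak with a member, and with ties broken by gene length. Window counts, distances, list classes and sequence searches were tested on simulated data. Alternatives concerned the peak set, window, start site, overlap, background and searched stretch. Python 3.11.15, numpy 2.4.6, pandas 2.3.3 and matplotlib 3.10.9 were used.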

Additional observations from a re-analysis of the deposited data

How the results depend on the processing

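Peaks were found around 9 of the 10 genes in the 30-cycle list alone, in the 36-cycle list alone and among peaks wider than the median of all combined peaks. In windows of 50 kb there were 7 such genes (61.0% of protein-coding genes), within 100 kb of the start sites 8 (69.7%) and in windows of 200 kb 9 (83.8%). For the single lists and the wider peaks no such share is given. The 73.4% of protein-coding genes is for the combined set, so it is no background for those counts. The 61 peaks became 38 in the 36-cycle list alone and 32 in windows of 50 kb. They stayed within 1.5 times under the other alternatives, with 53 in the 30-cycle list, 51 after joining across 500 bp, 87 in windows of 200 kb and 51 within 100 kb of the start sites. The median distance of the nearest peak, 6.72 kb, was 3.24 kb from any transcript start, 18.3 kb in the 30-cycle list, 28.1 kb in the 36-cycle list and 37.4 kb among wider peaks, where fewer peaks enter. The share of genes with a peak in the window was 63.0% over all annotated genes and 75.2% over protein-coding genes of like length. With the whole peak searched, CAGCTG or TGANTCA was in 59.0% of the 61 peaks and in 56.4% of all peaks. In the central stretch the shares were 37.7% of the 61 and 36.5% of all peaks, and the rise follows from the longer sequence.

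Chosen after the data were seen were the gene counts by window above, the counts of genes with a peak inside the gene or near the start, and their values per list and by other start sites. In the 36-cycle list, 3 genes had a peak within 10 kb of the start, against 13.8% of protein-coding genes. With RefSeq starts 2 genes, and with any transcript start 3, had a peak within 1 kb. No share over protein-coding genes is given for these starts, since the 13.2% is for the start of the gene record. No result about the 10 genes is therefore drawn from the rise in number, and whether other genes show the same rise was not tested. The unknown depth limits what the absence of a peak means. Stricter thresholds on peak score could not be tried, as the lists give none. No paired analysis was possible because a single library per list was used.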

Other observations

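The group of 8 peaks upstream of Igfbp5 was set beside the rest of the genome. When combined peaks up to 2675 bp apart, the largest gap in that group, were joined genome-wide, 17484 groups were formed, and 21 of them, this one included, held 8 peaks or more. The largest held 24 peaks. The gap was taken from the group itself, so this describes its size and is no test.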
